A study of Mus musculus with 9 samples.

Results

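The kinetochore is the protein machine that is built on each centromere and ties the chromosome to the microtubules of the spindle. The spindle checkpoint is the signal that unattached kinetochores send to hold a cell in mitosis. Their genes were compared here between mouse T cell lymphomas driven by MYCN and control CD4 T cells. Members were chosen by symbol, as every row named Cenp with 1 further letter plus a written list of outer kinetochore, checkpoint, chromosomal passenger and mitotic kinase genes. The rule used no measured value and found 42 genes among the 46078 of the deposited count table. All 42 were among the 15401 genes with enough reads to be tested.

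Transcript 3′ ends were sequenced from 9 samples of C57BL/6J mice. The lymphoma group holds 6 samples of T cell lymphoma cells from the thymus, whose tumours arose under MYCN, and its libraries are numbered 34, 53, 56, 70, 72 and 86. The control group, called CD4, holds 3 samples of CD4 T cells from the spleen, numbered 1, 2 and 3. The labels give no age, sex or treatment, do not name the promoter that drives MYCN, and do not say whether each sample came from its own animal, so p-values measure the spread between these samples, which may in part be technical. Tissue of origin was thymus in every lymphoma and spleen in every control, so tissue and tumour cannot be told apart. Reads counted in genes ran from 11170704 to 15769679 in lymphoma and from 8099960 to 10808828 in CD4.

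Inner kinetochore proteins sit on chromatin that carries the histone variant CENP-A and stay there for most of the cell cycle. The outer kinetochore is added on top as cells enter mitosis and binds microtubules through the NDC80 complex. Where microtubules are missing, checkpoint kinases and adaptors gather on the outer kinetochore and build an inhibitor of CDC20, the activator of the anaphase-promoting complex. Most of these genes are transcribed late in the cell cycle, under the DREAM and MuvB complexes, which bind a promoter element known as the cell cycle genes homology region, or CHR. Resting T cells hold them low, and lymphocytes that enter the cycle raise them.

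Several library facts apply to every value below. The mouse gene Mycn was at or under 0.184 CPM in every lymphoma and 0.550 CPM in every CD4 library, so its counts do not check the labels. The 6 lymphomas had 119 to 178 CPM (counts per 1000000 of the scaled library) of Ddx3y, a Y chromosome gene, and the CD4 libraries 0.191 to 0.734 CPM, so a sex difference also coincides with the groups. The T cell receptor subunit Cd3e was at 150 to 217 CPM in lymphoma and 138 to 192 CPM in CD4, and none of the 10 T cell markers rose. Cd4 itself lay between 6.04 and 71.9 CPM in lymphoma and between 199 and 263 CPM in CD4, and Cd8a, a marker of another T cell class, at 31.4, 31.8 and 25.6 CPM in CD4 1, 2 and 3. Lymphoma 53 had 29.4 CPM of Cd8a, and the other 5 tumours 0.0645 to 1.53 CPM. All 10 B cell markers were lower in lymphoma, and their summed level was 1254 to 1514 CPM in the CD4 libraries against 6.85 to 13.4 CPM in the lymphomas. Summed myeloid markers ran from 51.0 to 2181 CPM in lymphoma and from 764 to 985 CPM in CD4, and 4 of 10 fell. Summed erythroid markers ran from 213 to 1068 CPM and from 147 to 393 CPM, with Tfrc higher and none lower. Summed NK markers ran from 336 to 817 CPM and from 211 to 235 CPM, but of the 6 genes 1 (Gzma) rose and 3 fell, with a median log2 fold change of -2.81 and Ncr1 at 0 in every lymphoma. Summed stromal and endothelial markers ran from 97.4 to 180.2 CPM and from 217 to 239 CPM, with Cdh5 at 0 in every lymphoma and Dcn, Krt5 and Krt8 at 0 in every CD4 library; of the 7 tested, 2 rose and 2 fell. The part that these other cells play in the results below was not tested. In such bulk RNA, more dividing cells and more transcript per cell cannot be told apart.

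Kinetochore and checkpoint transcripts were higher in lymphoma almost throughout. At an adjusted p under 0.05 (edgeR quasi-likelihood test, Benjamini-Hochberg over all tested genes) 38 of the 42 genes rose, or 90.5%, where 24.7% of all tested genes rose. None fell, where 21.9% of all tested genes fell, and none was lower at an unadjusted p under 0.05 in edgeR or called lower by DESeq2 or limma voom. Of the 42, 37 rose by at least 2-fold (17.9% of tested genes), 28 by at least 4-fold (8.29%) and 20 by at least 8-fold (4.94%). The median log2 fold change, lymphoma over CD4, was 2.96 over the 42 genes and 0.04 over all tested genes. In 38 genes every lymphoma library lay above every CD4 library, which held for 22.6% of tested genes. Cenpj, Cenpq, Cenpt and Mis12 did not pass the test. Lymphomas 34, 53, 56, 70, 72 and 86 summed to 3745, 3546, 3830, 3700.4, 4067 and 4495 CPM over the 42 genes, and the controls to 792, 643 and 652 CPM. The ratio of the group means of these sums was 5.60.

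**Figure D1:**
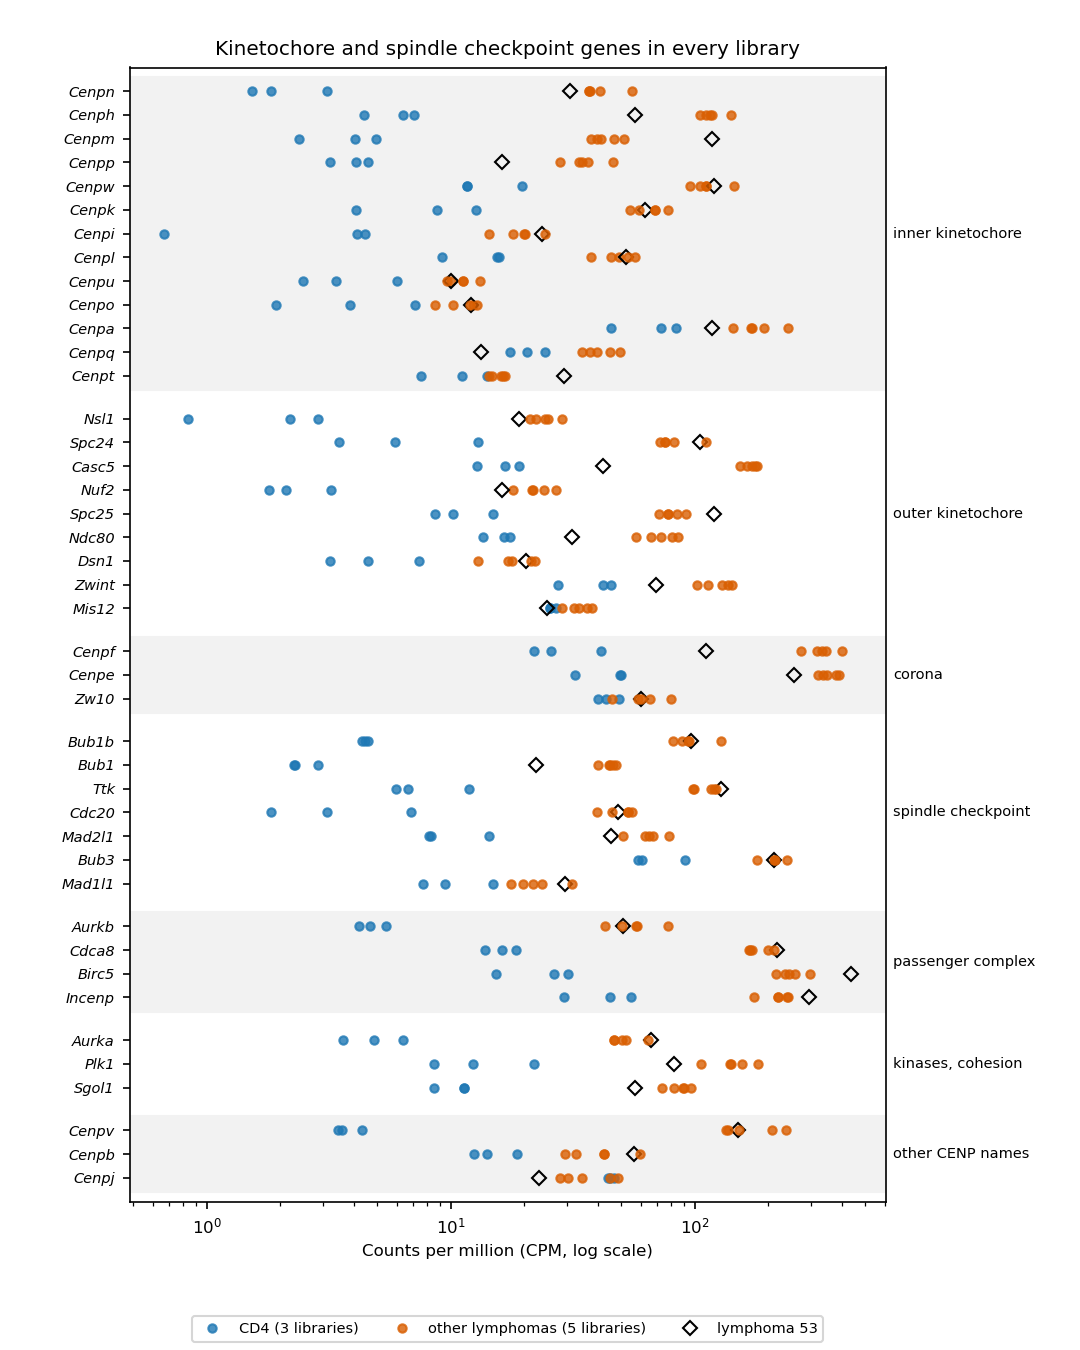
CPM of each of the 42 genes (log axis) in every library, with CD4 libraries in blue, 5 lymphomas in orange and lymphoma 53 as an open diamond. The lymphoma points stand clear of the CD4 points in 38 genes, and the groups overlap in Cenpj, Cenpq, Zw10 and Mis12.

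The short promoter stretches around the CHR letters TTTGAA are shown first, because the genes rose together and these letters are known from promoters of late cell cycle genes. Promoter windows of 250 bases before to 50 bases after the transcription start came from RefSeq (GRCm38.p6). They were found for 38 of the 42 genes, in 42 windows, 40 of the genes having a RefSeq record under their own symbol and Casc5 and Sgol1 under a synonym. Aurkb, Incenp, Nsl1 and Spc24 had no entry. Each stretch below is 22 bases long, runs 5′ to 3′ in the direction that reads TTTGAA, and carries those letters in capitals.

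Cdc20: agttgggtTTTGAAggagccaa

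Plk1: gcgccgcgTTTGAAttcgggga

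Ttk: gaaacacgTTTGAAatttcccc

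Cenpf: gcgggcagTTTGAAtcgctcgt

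Cenpn: gaggtgctTTTGAAgccgccaa

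Cenpa: ggtgatttTTTGAActgctggc

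Bub3: tggctgatTTTGAAcgccaacg

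The first 5 belong to genes whose transcripts differed by more than 8-fold between the groups, and those of Cenpa and Bub3 to genes that rose by 2.58-fold and 3.01-fold. The Cdc20 stretch lies at chr4:118437348-118437369 on the minus strand, with its first capital 18 bases before the start site. The Plk1 stretch lies at chr7:122159457-122159478 (plus), and the Ttk stretch at chr9:83834688-83834709 (minus). The Cenpf stretch lies at chr1:189688071-189688092 (minus), the Cenpn stretch at chr8:116921723-116921744 (minus), the Cenpa stretch at chr5:30666894-30666915 (plus) and the Bub3 stretch at chr7:131560319-131560340 (minus). The capitals of Plk1, Ttk, Cenpf and Cenpa lie at or after the start site, those of Cdc20, Cenpn and Bub3 before it.

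TTTGAA, on either strand, occurred in 17 of the 42 windows, 40.5% (Wilson 95% interval 27.0% to 55.5%), and in 17.9% of all 32851 RefSeq mouse windows of the same length. By gene, 16 of 38 had it. The windows of Bub3 overlap and hold the same site, and the interval counts each window on its own. Within 50 bases of the start site TTTGAA occurred in 14 of 42 windows, 33.3%, and in 4.94% of all windows. The choice of this inner window was made after the values were seen. Counting the bases before the start site alone, the shares were 16.7% and 16.0%, so the letters lay mostly at or just past the start. CCAAT, the letters that the factor NF-Y binds, occurred in 27 windows, 64.3% (49.2% to 77.0%), against 37.4% of all. By gene, 24 of 38 had CCAAT. E2F letters (TTTCCCGC, TTTGGCGC or TTCCCGCC on either strand, the first and the last overlapping each other) occurred in 8 windows, 19.0%, against 3.21%. CACGTG, the E-box that MYC family proteins bind, occurred in 3 windows, 7.14%, against 7.15%. A match of letters is a description of the window and shows no binding.

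The 120 bases before the start site of Cdc20 are given because they hold both kinds of letters within a short distance. TTTGAA and CCAAT are in capitals. The stretch lies at chr4:118437344-118437463 on the minus strand, GRCm38.

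Cdc20: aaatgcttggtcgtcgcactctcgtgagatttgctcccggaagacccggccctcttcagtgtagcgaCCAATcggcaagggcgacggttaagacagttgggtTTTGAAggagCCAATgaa

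The Cdc20 stretch has CCAAT on both sides of its TTTGAA. The 14 genes with TTTGAA near the start were Aurka, Bub1b, Bub3, Casc5, Cdc20, Cdca8, Cenpa, Cenpf, Cenpn, Cenpw, Ndc80, Plk1, Spc25 and Ttk. All 14 rose, with a median log2 fold change of 3.28 and the lowest, 1.36, in Cenpa. Of the 24 genes with a window but no such match, 20 rose and the median was 2.23. Over the whole window the medians were 3.21 with TTTGAA and 2.65 without. Counting the bases before the start site alone, they were 2.43 with it and 2.95 without, the reverse order. For CCAAT in the whole window they were 2.98 with and 1.96 without, and for E2F letters 1.87 with and 2.96 without. The order thus depended on the window and the letters, and no test was made of these differences.

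**Figure D2:**
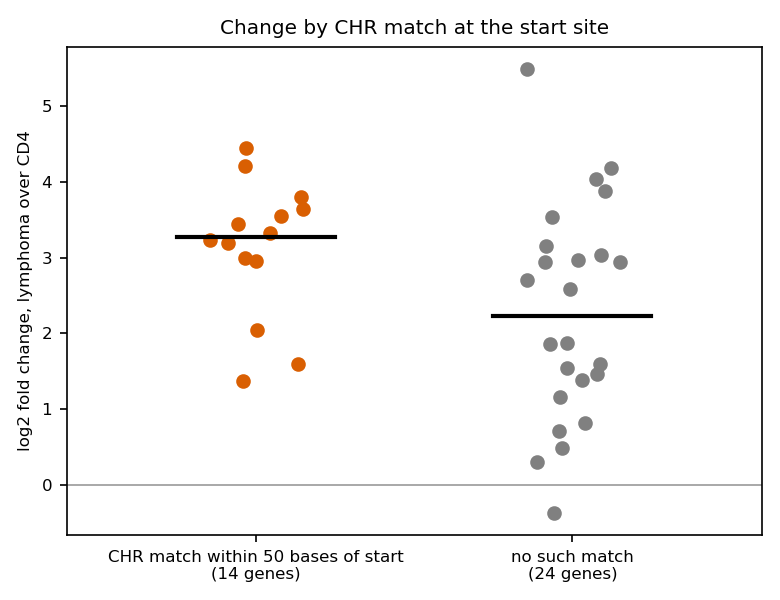
log2 fold change, lymphoma over CD4, of the 14 genes with TTTGAA within 50 bases of the start site and the 24 genes with a promoter window and no such match; points are genes and the bar is the median. The medians are 3.28 and 2.23, and every gene under 1.36 is in the group without a match. This window was chosen after the values were seen.

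Among the inner kinetochore genes that the symbol rule took in, 11 of 13 rose and the median log2 fold change was 2.71. The rule left out the inner genes Cenpc1, Itgb3bp, Apitd1 and Stra13, which are counted below among other kinetochore genes. All of these rose, Cenpc1 least (log2 fold change 1.05, edgeR adjusted p = 0.0452). Lymphoma 53 had 20.6 CPM of Cenpc1, below every control. Cenpa encodes the histone H3 variant that marks the centromere. Its level was 118 to 241 CPM in the 6 lymphomas (median 171) and 83.4, 45.2 and 72.3 CPM in CD4 1, 2 and 3. The groups did not overlap, and the rise was among the smaller ones of the list (log2 fold change 1.36, SE 0.26, adjusted p = 0.00109).

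Cenpn and Cenpl encode the pair of proteins of which CENP-N reads the CENP-A nucleosome. Cenpn lay between 30.7 and 55.1 CPM in lymphoma (median 37.0) and at 1.53, 3.12 and 1.83 CPM in CD4. It had the largest rise of the inner genes, an 18.4-fold difference (log2 fold change 4.21, SE 0.32, adjusted p = 1.59e-06). Cenpl rose less, from 9.16, 15.5 and 15.8 CPM in CD4 to between 37.4 and 56.8 CPM in lymphoma (median 50.4; log2 fold change 1.86, SE 0.23, adjusted p = 5.7e-05). Both genes separated the groups fully.

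Cenph, Cenpi, Cenpk and Cenpm encode a complex that bridges CENP-A chromatin and the outer layer. Cenph was at 56.8 to 140.3 CPM in lymphoma (median 113) and at 7.06, 6.36 and 4.40 CPM in CD4 (log2 fold change 4.18, SE 0.32, adjusted p = 1.63e-06). Cenpm was at 37.4 to 117 CPM (median 44.0) against 2.39, 4.92 and 4.04 CPM, a log2 fold change of 3.88 (SE 0.47, adjusted p = 4.88e-05), with lymphoma 53 far above the other 5. These were the steepest changes of the complex.

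Cenpk was at 54.4 to 77.7 CPM in lymphoma (median 65.7) and at 4.10, 8.76 and 12.7 CPM in CD4 (log2 fold change 2.94, SE 0.32, adjusted p = 2.1e-05). Cenpi was at 14.4 to 24.4 CPM (median 20.0) against 0.668, 4.44 and 4.13 CPM (log2 fold change 2.71, SE 0.50, adjusted p = 0.000864). The low Cenpi value of CD4 1 rests on 7 reads. All 4 genes of the complex rose.

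Cenpo, Cenpp, Cenpq and Cenpu encode a further inner complex, known to help chromosomes align. Cenpp was at 16.3 to 46.2 CPM in lymphoma (median 34.04) and at 4.10, 4.56 and 3.21 CPM in CD4 (log2 fold change 3.04, SE 0.35, adjusted p = 2.83e-05). Cenpu was at 9.68 to 13.1 CPM (median 10.6) against 2.48, 6.00 and 3.39 CPM (log2 fold change 1.46, SE 0.35, adjusted p = 0.00446). Cenpo was at 8.59 to 12.8 CPM (median 12.1) against 7.16, 1.92 and 3.85 CPM (log2 fold change 1.39, SE 0.40, adjusted p = 0.0129). The Cenpo call rests on few reads and on single controls: its log2 fold change was 1.98 without CD4 1, and its adjusted p was 0.0505 without CD4 3.

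Cenpq did not pass the test and its groups overlapped. It was at 13.3 to 49.2 CPM in lymphoma (median 38.4) and at 17.5, 24.4 and 20.5 CPM in CD4 (log2 fold change 0.81, SE 0.34, adjusted p = 0.0668). Lymphoma 53 held the 13.3 CPM, below all 3 controls, and without this library Cenpq passed (log2 fold change 0.98, adjusted p = 0.000842). The spread of Cenpq within lymphoma was thus carried by 1 library.

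Cenpt and Cenpw encode histone-fold proteins that contact centromeric DNA, and CENP-T also recruits the NDC80 complex. Cenpw was at 95.7 to 144 CPM in lymphoma (median 111) and at 19.6, 11.6 and 11.7 CPM in CD4 (log2 fold change 3.001, SE 0.24, adjusted p = 2.12e-06). Cenpt was at 14.4 to 29.0 CPM (median 16.2) against 7.54, 14.0 and 11.1 CPM (log2 fold change 0.71, SE 0.31, adjusted p = 0.0768). Cenpt did not pass the test although its lowest lymphoma lay just above its highest control.

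In the outer kinetochore 8 of 9 genes rose, with a median log2 fold change of 2.95. Ndc80, Nuf2, Spc24 and Spc25 encode the 4-part NDC80 complex, the main microtubule binder. Spc24 was at 72.1 to 111 CPM in lymphoma (median 78.7) and at 12.98, 5.88 and 3.49 CPM in CD4 (log2 fold change 3.54, SE 0.39, adjusted p = 2.43e-05). CD4 1 was the highest control, and without it the log2 fold change was 4.23. Spc25 was at 71.3 to 119.5 CPM (median 81.2) against 14.9, 10.2 and 8.62 CPM (log2 fold change 2.95, SE 0.25, adjusted p = 3.74e-06).

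The other two subunits also separated the groups. Nuf2 was at 16.3 to 27.1 CPM in lymphoma (median 21.5) and at 3.24, 1.80 and 2.11 CPM in CD4 (log2 fold change 3.16, SE 0.32, adjusted p = 1.22e-05). Ndc80 was at 31.4 to 85.2 CPM (median 69.5) against 16.5, 13.6 and 17.4 CPM (log2 fold change 2.05, SE 0.30, adjusted p = 0.000178). The 4 subunits thus rose by 2.05 to 3.54 on the log2 scale; the differences between them were not tested.

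Dsn1, Nsl1 and Mis12 encode subunits of the MIS12 complex, which links inner and outer layers. Nsl1 was at 19.0 to 28.6 CPM in lymphoma (median 23.3) and at 2.86, 0.840 and 2.20 CPM in CD4 (log2 fold change 3.55, SE 0.38, adjusted p = 1.82e-05), the value of CD4 2 resting on 7 reads. Dsn1 was at 12.9 to 22.1 CPM (median 19.0) against 4.58, 7.44 and 3.21 CPM (log2 fold change 1.88, SE 0.33, adjusted p = 0.000647). Mis12 was at 24.7 to 37.7 CPM (median 32.7) against 26.9, 25.6 and 25.6 CPM (log2 fold change 0.30, SE 0.19, adjusted p = 0.205). Mis12 did not pass the test, and lymphoma 53, at 24.7 CPM, lay below the controls.

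Casc5, the older symbol of Knl1, encodes the scaffold on which the BUB proteins assemble. It was at 42.01 to 179.6 CPM in lymphoma (median 167) and at 12.8, 19.1 and 16.7 CPM in CD4 (log2 fold change 3.19, SE 0.43, adjusted p = 0.000132). The groups did not overlap, but lymphoma 53 held the 42.01 CPM while the other 5 lay between 153 and 179.6 CPM. Zwint, whose product binds KNL1, was at 69.6 to 142 CPM (median 121) against 45.2, 27.4 and 42.02 CPM (log2 fold change 1.59, SE 0.26, adjusted p = 0.000374).

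**Figure D3:**
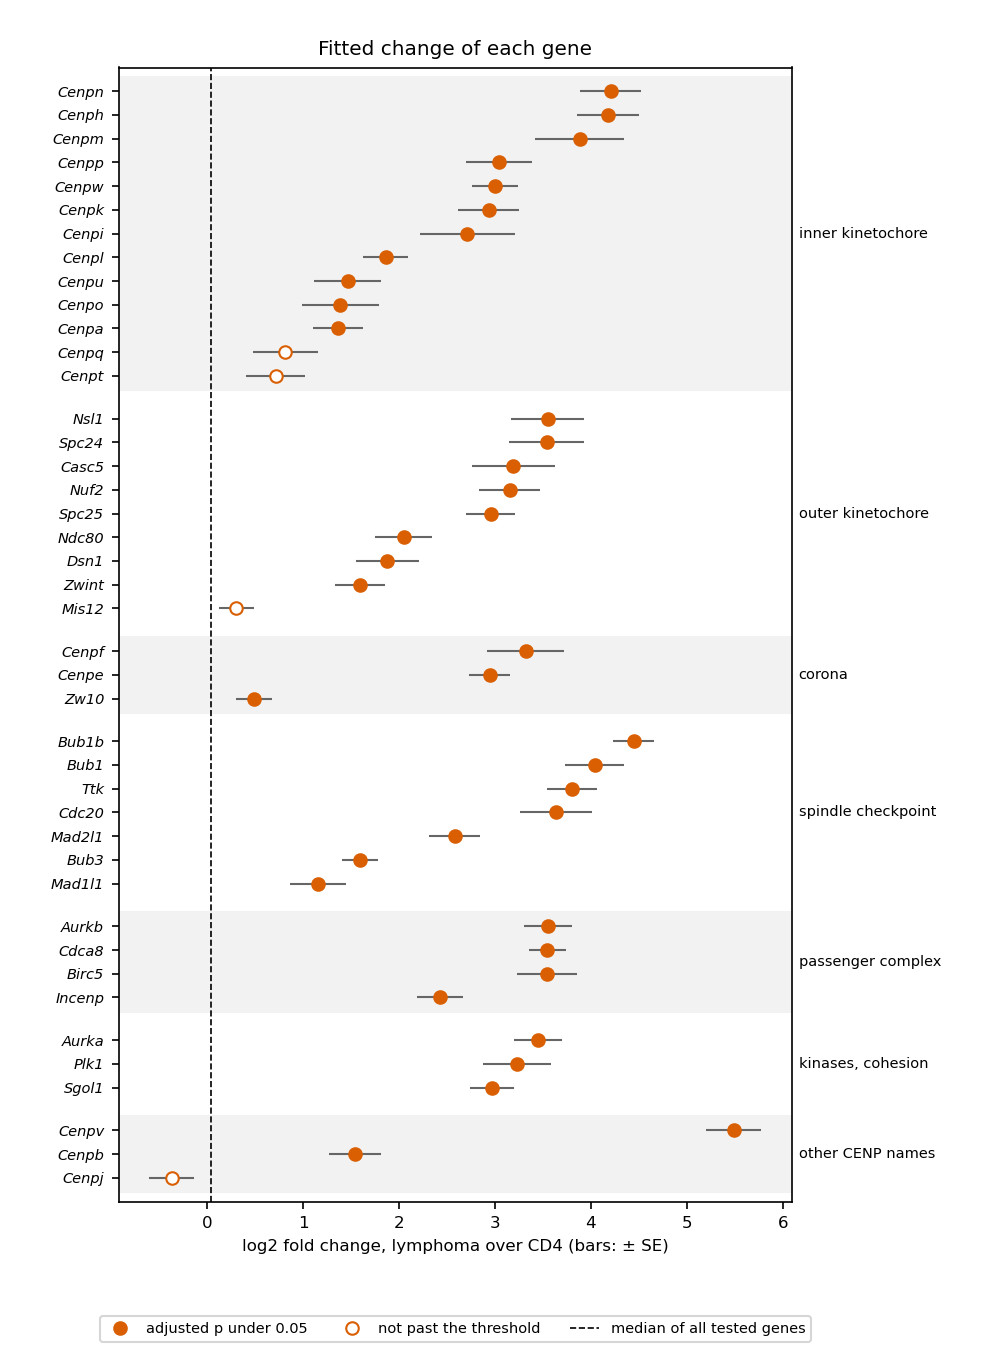
log2 fold change, lymphoma over CD4, with its standard error for each of the 42 genes, grouped by role; hollow points did not pass an adjusted p of 0.05 and the dashed line is the median of all tested genes, 0.04. Cenpv stands highest at 5.49, and Cenpj, Cenpq, Cenpt and Mis12 are the hollow points.

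Cenpe, Cenpf and Zw10 belong to the corona, the outermost layer, where CENP-E is the kinesin that carries chromosomes along microtubules. Cenpe was at 254 to 391 CPM in lymphoma (median 341) and at 49.3, 49.8 and 32.3 CPM in CD4 (log2 fold change 2.94, SE 0.22, adjusted p = 1.32e-06). Cenpf was at 111 to 401 CPM (median 324) against 41.4, 21.8 and 25.7 CPM (log2 fold change 3.32, SE 0.40, adjusted p = 5.7e-05), with lymphoma 53 at 111 CPM. Both separated the groups.

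Zw10, part of the dynein-recruiting RZZ complex and also active in vesicle transport outside mitosis, differed little. It was at 45.9 to 80.1 CPM in lymphoma (median 60.0) and at 48.8, 40.0 and 43.3 CPM in CD4 (log2 fold change 0.49, SE 0.19, adjusted p = 0.0499). Its groups overlapped by 1 lymphoma. Its adjusted p ran from 0.0188 to 0.156 over 19 other ways of processing the counts, and the call was lost in 14 of them.

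All 7 genes of the spindle checkpoint and its target rose, with a median log2 fold change of 3.64. Bub1b encodes BUBR1, a direct part of the inhibitor of CDC20. It was at 81.7 to 127 CPM in lymphoma (median 94.2) and at 4.58, 4.44 and 4.31 CPM in CD4, a 21.8-fold difference (log2 fold change 4.44, SE 0.22, adjusted p = 1.34e-07). The controls were nearly equal to each other, and lymphoma 86 was the one high tumour.

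Bub1 and Ttk encode the kinases that start the signal, TTK being the one also called MPS1. Bub1 was at 22.4 to 47.4 CPM in lymphoma (median 44.7) and at 2.86, 2.28 and 2.29 CPM in CD4 (log2 fold change 4.04, SE 0.31, adjusted p = 1.62e-06). Ttk was at 98.5 to 127 CPM (median 118) against 6.68, 11.9 and 5.96 CPM (log2 fold change 3.81, SE 0.26, adjusted p = 7.33e-07). Ttk varied little among tumours, while Bub1 was at 22.4 CPM in lymphoma 53 and at 40.2 CPM or more in the other 5.

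Mad2l1 encodes MAD2, the protein that changes shape at unattached kinetochores, and Mad1l1 encodes its anchor MAD1. Mad2l1 was at 45.2 to 78.1 CPM in lymphoma (median 63.7) and at 14.3, 8.28 and 8.16 CPM in CD4 (log2 fold change 2.58, SE 0.27, adjusted p = 1.45e-05). Mad1l1 was at 17.6 to 31.3 CPM (median 22.6) against 9.45, 7.68 and 14.95 CPM, the smallest rise of the checkpoint genes (log2 fold change 1.16, SE 0.29, adjusted p = 0.00637). Bub3, which also serves outside mitosis, was at 180.1 to 239 CPM (median 212) against 91.4, 58.3 and 60.8 CPM (log2 fold change 1.59, SE 0.19, adjusted p = 3.76e-05). Those with the smaller folds, Bub3 and Mad1l1, still separated the groups.

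Cdc20, the target of the checkpoint, was at 39.9 to 55.3 CPM in lymphoma (median 50.6) and at 6.87, 3.12 and 1.83 CPM in CD4 (log2 fold change 3.64, SE 0.37, adjusted p = 1.42e-05). CD4 1 was the highest control, and without it the log2 fold change was 4.34. The inhibitor's genes and the gene of its target were thus higher in the same samples.

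The chromosomal passenger complex corrects wrong attachments; AURKB is its kinase, and INCENP, survivin (Birc5) and borealin (Cdca8) place it on the centromere. All 4 genes rose. Aurkb was at 42.9 to 77.9 CPM in lymphoma (median 54.0) and at 5.44, 4.68 and 4.22 CPM in CD4 (log2 fold change 3.55, SE 0.25, adjusted p = 8.26e-07). Cdca8 was at 167 to 217 CPM (median 185) against 18.5, 16.2 and 13.9 CPM (log2 fold change 3.54, SE 0.20, adjusted p = 2.07e-07). Birc5 was at 216 to 437 CPM (median 249.9) against 30.3, 15.4 and 26.4 CPM (log2 fold change 3.54, SE 0.31, adjusted p = 4.61e-06).

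Those 3 log2 fold changes were nearly equal. Incenp, the scaffold, was at 174 to 293 CPM in lymphoma (median 228) and at 54.9, 44.9 and 29.0 CPM in CD4 (log2 fold change 2.42, SE 0.24, adjusted p = 1.14e-05), a 5.37-fold rise. No gene of the complex overlapped between the groups.

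Aurka and Plk1 encode kinases of the centrosome and of mitotic entry, and Sgol1 (now Sgo1) the protector of centromeric cohesion. Aurka was at 46.5 to 66.1 CPM in lymphoma (median 51.1) and at 6.39, 3.60 and 4.86 CPM in CD4 (log2 fold change 3.45, SE 0.25, adjusted p = 1.22e-06). Plk1 was at 81.9 to 181 CPM (median 139.9) against 21.9, 12.4 and 8.53 CPM (log2 fold change 3.23, SE 0.36, adjusted p = 2.33e-05). Sgol1 was at 57.0 to 96.7 CPM (median 85.5) against 11.4, 8.52 and 11.3 CPM (log2 fold change 2.97, SE 0.23, adjusted p = 1.63e-06). In all 3 the groups were apart.

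The symbol rule also takes in Cenpb, Cenpj and Cenpv, whose products are not core kinetochore proteins. Cenpv, whose product is known from centromere and cell division studies, had the largest rise of the 42. It was at 134 to 237 CPM in lymphoma (median 151) and at 3.43, 4.32 and 3.58 CPM in CD4, a 44.9-fold difference (log2 fold change 5.49, SE 0.29, adjusted p = 1.99e-07). Every control was under 5 CPM and no tumour was under 100 CPM.

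Cenpb, which encodes the protein that binds the CENP-B box of centromeric satellite DNA, was at 29.5 to 59.6 CPM in lymphoma (median 42.4) and at 12.5, 18.6 and 14.1 CPM in CD4 (log2 fold change 1.54, SE 0.27, adjusted p = 0.000683). Cenpj, which encodes the centriole protein also called CPAP, was at 23.0 to 48.4 CPM (median 32.3) against 44.7, 43.9 and 46.6 CPM (log2 fold change -0.37, SE 0.23, adjusted p = 0.210). Cenpj had the only negative fold change of the 42, and it did not pass the test.

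Exons of 12 of the 42 genes share bases with another gene in GENCODE M21. Reads over these bases could be missing from their counts or could belong to the neighbour, and which of these holds was not tested. Cenpb overlaps Spef1 on its own strand. Cenpp, Cenpk, Cenpu, Cenpo, Cenpq, Cenpt, Cdca8, Plk1, Mis12, Cdc20 and Mad1l1 overlap a gene on the opposite strand, and the strand setting of the counting is not given in the sources used here, so their values are uncertain to that degree. Cenpq, Cenpt and Mis12, which did not pass the test, are among them, and Cenpj is not.

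The tumours resembled each other in these genes more than in the rest of the table. The median coefficient of variation over the 6 lymphomas was 19.3% for the 42 genes and 32.6% for all tested genes, with no matching on level, and 29 of the 42 lay under 25%. The median SD of log2 CPM in lymphoma was 0.28 for the 42 genes and 0.47 for all tested genes. In the CD4 libraries the order was the other way round, with a median SD of log2 CPM of 0.42 for the 42 genes and 0.36 for all tested genes. The fewest reads of any of the 42 genes were 7 in a CD4 library and 110 in a lymphoma, and the part of counting error in this was not tested. CD4 1 was the highest control in 24 of the 42 genes (57.1%, and 35.9% of tested genes). CD4 1 also had the highest summed erythroid markers of the controls, 393 CPM, and the highest summed S phase level; their part in its values was not tested.

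Lymphoma 53 was at an end of the tumours' range in 26 of the 42 genes, 61.9%, a share near the 63.8% of all tested genes. It had the fewest gene counts of the tumours and the lowest share of reads counted for a gene, 38.7%. It was the lowest tumour in 18 of the 42 genes (42.9%, and 33.3% of tested genes) and the highest in 8 (19.0%, and 30.5% of tested genes). In 6 genes, 14.3%, it lay below 0.5 times the median of the other 5, which held for 20.3% of tested genes. Its sum over the 42 genes, 3546 CPM, was the lowest of the 6, next to the 3700.4 CPM of lymphoma 70. Its passenger complex sum of 998 CPM was the highest of the 6, whereas its corona sum of 425 CPM and its outer kinetochore sum of 447 CPM were the lowest. Without lymphoma 53 the median coefficient of variation of the 42 genes was 14.1%, and 39 genes rose instead of 38. The part that depth or read quality plays in these values was not tested.

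**Figure D4:**
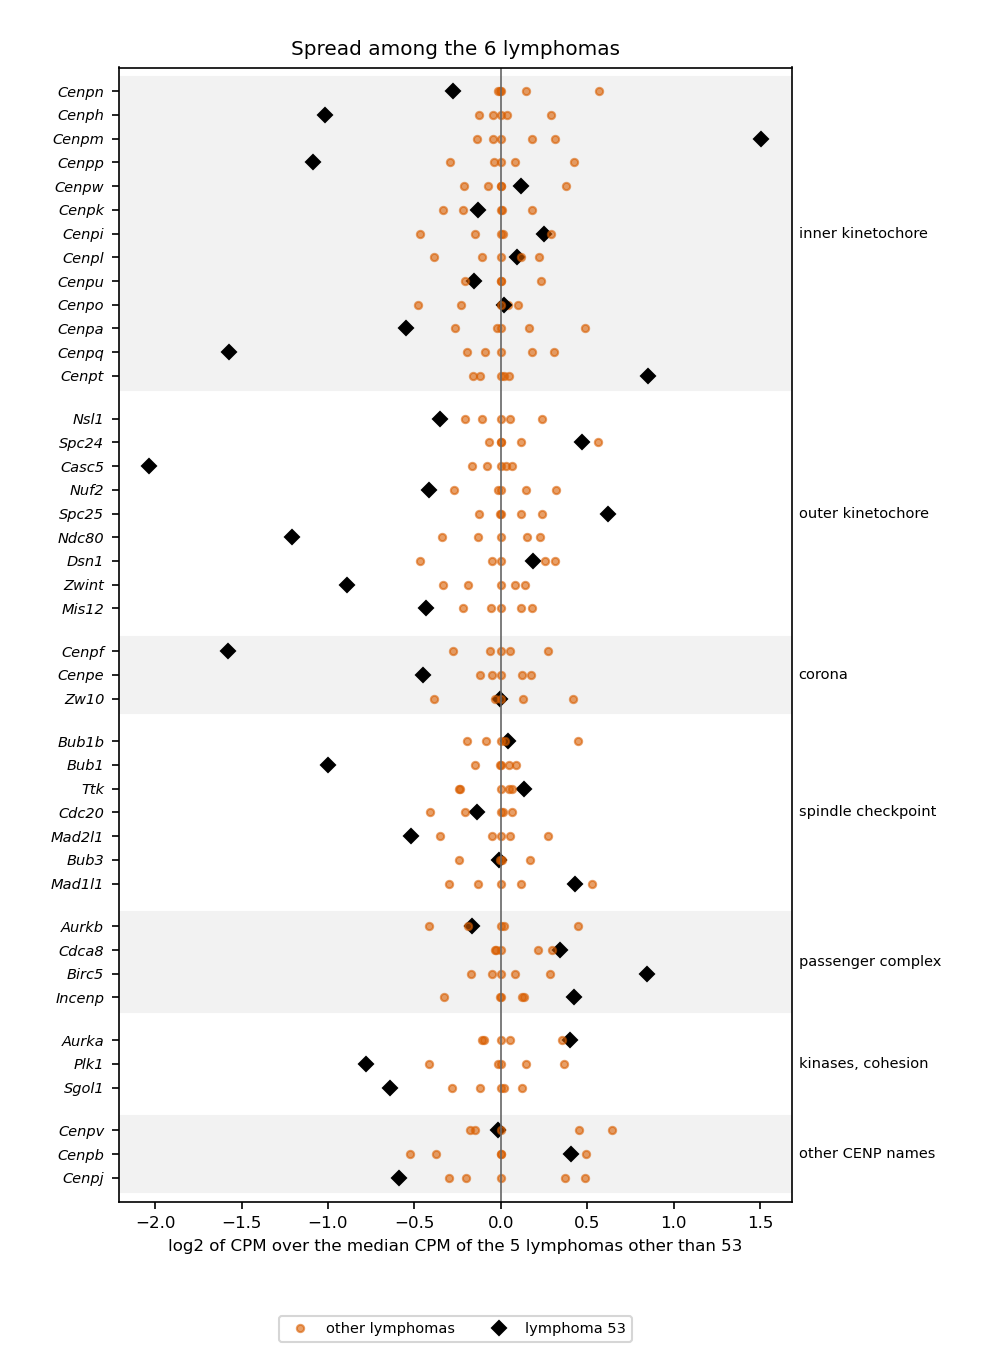
log2 of each tumour's CPM over the median of the 5 lymphomas other than 53, for the 42 genes. The black diamonds of lymphoma 53 reach farthest to both sides, low in Casc5, Cenpf and Cenpq and high in Cenpm, Birc5 and Cenpt.

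Genes that work beside the kinetochore moved to different degrees. Of 23 other kinetochore and centromere loading genes 20 rose, none fell and the median log2 fold change was 2.50. The largest rise was in Kif2c, a kinesin that takes microtubule ends apart, with a mean of 34.6 CPM in the tumours (SD 5.01, n = 6) and of 1.40 CPM in the controls (SD 1.19, n = 3; log2 fold change 4.61, SE 0.54, edgeR adjusted p = 3.79e-05). Its log2 fold change was 5.47 without CD4 3. Mad2l1bp, Bod1 and Clasp1 did not pass the test.

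The anaphase-promoting complex, which the checkpoint restrains, and its partners had a lower median. Of 20 genes for its subunits, partner enzymes, activator and inhibitor, securin and separase, 12 rose, 1 fell and the median was 0.79. Of the 12, 5 rose by at least 2-fold: the subunit gene Anapc5, and Ube2c, Fbxo5, Fzr1 and Espl1, which encode no subunit of the complex. Ube2c, its ubiquitin-conjugating enzyme, rose most, with a mean of 168 CPM (SD 23.7, n = 6) over the tumours beside 9.29 CPM (SD 2.13, n = 3; log2 fold change 4.18, SE 0.23, edgeR adjusted p = 2.07e-07). Pttg1, which encodes securin, the inhibitor of separase, was the one gene that fell. Its level was between 34.03 and 55.0 CPM in the tumours and 66.2, 63.8 and 64.6 CPM in CD4 (log2 fold change -0.55, SE 0.19, adjusted p = 0.0335). All tumours lay below all controls, but the call was lost in 10 of 19 other ways of processing, with an adjusted p of up to 0.128.

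Cohesin and condensin genes were divided, with 10 of 21 higher, 2 lower and a median of 0.54. Cdca5, which encodes sororin, a protector of cohesin, rose most (32.9 CPM ± 9.11 SD, n = 6, against 1.75 CPM ± 1.10 SD, n = 3; log2 fold change 4.25, SE 0.43, edgeR adjusted p = 1.2e-05); without CD4 2 its log2 fold change was 4.86. Esco1, a cohesin acetyltransferase, fell most (16.6 CPM ± 5.65 SD, n = 6, against 39.7 CPM ± 4.23 SD, n = 3; log2 fold change -1.26, SE 0.32, edgeR adjusted p = 0.00648). The other gene that fell was Nipbl, the cohesin loader.

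Of 23 genes of mitotic entry and its transcription factors 16 rose, 2 fell and the median was 1.84. Ccnb1, cyclin B1, rose to a mean of 87.5 CPM (SD 12.2, n = 6), its CD4 mean being 4.42 CPM (SD 2.94, n = 3; log2 fold change 4.32, SE 0.42, edgeR adjusted p = 1.11e-05). Rbl2 encodes p130, a pocket protein of the repressive DREAM complex. It fell to a mean of 25.2 CPM (SD 6.78, n = 6), its CD4 mean being 59.0 CPM (SD 0.914, n = 3). The log2 fold change was -1.22 (SE 0.22, edgeR adjusted p = 0.000857). Ensa also fell. Rbl1, the gene of another pocket protein, rose instead (log2 fold change 0.98, SE 0.18, edgeR adjusted p = 0.000837). E2f4 and Lin9 rose too (log2 fold change 0.77 in each), and Lin37, Lin52, Lin54 and Tfdp1 did not pass the test.

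The PP1 and PP2A-B56 phosphatases, which oppose the kinetochore kinases, had the median nearest to 0 of these lists. Of 12 genes 4 rose, 1 of them by at least 2-fold, 2 fell and the median was 0.25. Ppp2cb, a catalytic subunit, rose most (log2 fold change 1.10, SE 0.26, adjusted p = 0.00477), and Ppp2r5b, a B56 subunit, fell most (log2 fold change -1.66, SE 0.46, adjusted p = 0.0104).

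All 24 S phase and proliferation genes rose, with a median of 3.12, beside 2.96 for the 42 kinetochore and checkpoint genes. Gins2, of the replicative helicase, had the largest fitted value (5.60, SE 0.96, adjusted p = 0.000614), but it had 0, 0 and 7 reads in CD4 1, 2 and 3, and its log2 fold change was 10.23 without CD4 3. The S phase sum averaged 5048 CPM over the tumours (SD 578, n = 6) and 647 CPM over the controls (SD 65.2, n = 3), a 7.80-fold difference of means beside 5.60-fold for the kinetochore and checkpoint genes. Divided by the S phase sum of the same library, the kinetochore and checkpoint sum was between 0.733 and 0.815 over the tumours (0.810 for lymphoma 53), and the controls had 1.10, 1.08 and 1.05. Every tumour lay below every control in this quotient, so the kinetochore and checkpoint sum rose by less than the S phase sum. Such sums weigh abundant genes most. The S phase sum also holds the proliferation genes Top2a and Mki67, which averaged 1149 and 423 CPM in the tumours. In the controls Bub3 and Cenpa averaged 70.2 and 67.0 CPM of the kinetochore and checkpoint sum. By role, the ratio of mean sums was 9.11 for the mitotic kinases and Sgol1, 8.60 for the passenger complex, 5.92 for the corona, 5.42 for the checkpoint, 4.81 for the outer and 4.52 for the inner kinetochore, and 3.88 for Cenpb, Cenpj and Cenpv together.

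**Figure D5:**
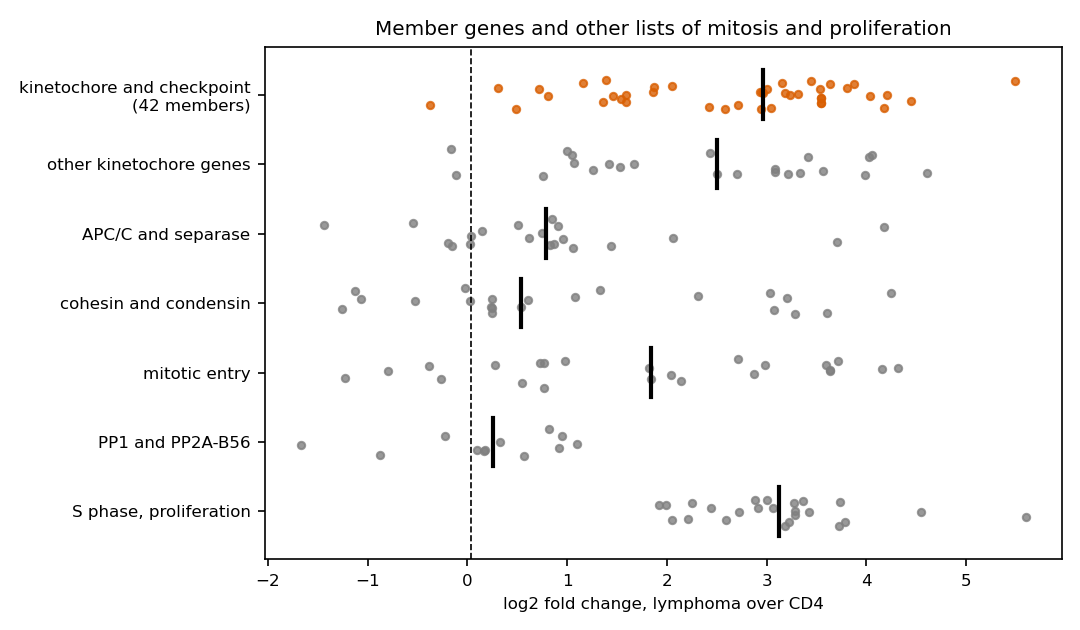
log2 fold change, lymphoma over CD4, of the 42 genes and of 6 lists of genes that work beside them; points are genes, bars are list medians and the dashed line is the median of all tested genes, 0.04. The medians run from 0.25 in the phosphatases to 3.12 in the S phase genes, with the 42 genes at 2.96.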

How the data were processed

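RNA from 6 lymphoma and 3 CD4 samples was profiled by 3′ end sequencing. The deposited table holds raw read counts per Ensembl gene and library with a symbol, per the file headers. FastQC, HISAT2, SAMtools and HTSeq and the builds mm10 and GRCm38 are named in the submitters' processing notes. Versions, gene models and strandedness of the counting are not given in the sources used here. The 5 summary rows of reads that were not counted for a gene were left out. Reads counted for a gene were 38.7% to 49.1% of a lymphoma library and 27.8% to 35.0% of a CD4 library. Columns that matched no sample numbered 0.

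The test was that of edgeR 4.0.16, run under R 4.3.3 (filterByExpr with a minimum count of 10, TMM scaling, robust glmQLFit, glmQLFTest, no covariate, 9 libraries). P-values were adjusted by Benjamini-Hochberg across 15401 genes. SE is the absolute log2 fold change over the square root of F. CPM takes the library size after TMM scaling, per 1000000. Counts were simulated for 15401 genes at the same group sizes, with only 50 genes changed at each fold. There 62.0% of genes raised 4-fold and 12.0% of those raised 2-fold were called. In the data 46.6% of tested genes passed, which makes the adjustment of p-values milder, so these rates are not those of the data. Motif shares have Wilson 95% intervals (Python 3.11.15, scipy 1.17.1), which cover counting error only.

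The members and gene lists were chosen with earlier results of these data known. Every member is named, and of each neighbouring list the genes with the largest rise and fall among those with an adjusted p under 0.05; other genes named were chosen after their values were seen. Alternatives were RLE, upper quartile and library-size scaling, no filter, at least 10 counts in every library, DESeq2 1.42.0, limma voom 3.58.1, an adjusted p under 0.01, a 2-fold limit, each library left out, and lymphomas 34, 70 and 72, whose leading T cell receptor beta segment was the same, averaged into 1.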

Additional observations from a re-analysis of the deposited data

Results flagged for a closer look

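Among the 6 lymphomas, 43 results (the 42 genes and their sum) were screened for a tumour set apart from its group, meaning a gap to its nearest neighbour above 0.625 of the group's range. Chance gives about 5% of such results, or 2.15 here, and 6 were found, all of them single genes. The 6 are 14.3% of the 42 genes, and 16.8% of all tested genes had such a tumour, so their number is near the background and the results share the same libraries. Lymphoma 53 was far below the other tumours for Casc5, the KNL1 scaffold, at 42.01 CPM against 153 to 179.6 CPM, and for the checkpoint kinase Bub1, at 22.4 CPM against 40.2 to 47.4 CPM. Lymphoma 53 was far above them for survivin, Birc5, at 437 CPM against 216 to 296 CPM. It was also far above them for Cenpm, at 117 CPM against 37.4 to 51.3 CPM, and for Cenpt, at 29.0 CPM against 14.4 to 16.6 CPM. Lymphoma 86 was far above the others for Bub1b, at 127 CPM against 81.7 to 96.1 CPM. Of the 6 genes Cenpt did not pass the test between the groups, and the other 5 rose with and without the library in question. Lymphoma 53 had the lowest depth and the lowest share of reads counted for a gene of the tumours. The part of either in these values was not tested.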

How the results depend on the processing

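Over 19 alternatives the count of kinetochore and checkpoint genes that rose ran from 35 (at least 10 counts in every library, where Cenpi and Nsl1 drop out) to 39 (without lymphoma 53), and from 36 to 39 with 1 library left out; none fell in any of them. Their median log2 fold change ran from 2.86 with upper quartile scaling to 3.06 without CD4 1. Of the 42 genes 39 kept the same call in every alternative, and Zw10, Cenpo and Cenpq did not. The folds of Cdc20, Cenpo and Spc24 moved by over 1.5 times without CD4 1; the cause was not tested. The number of genes whose groups did not overlap was 37 with RLE scaling and 40 without lymphoma 53. The share of promoter windows with TTTGAA was 50% when TTTAAA was counted too, and 27.6% over all windows. Within 50 bases of the start the share with CCAAT was 42.9% and with E2F letters 9.52%, against 13.6% and 1.09% of all windows. The median of the other kinetochore genes was 1.99 at 10 counts in every library, and that of mitotic entry genes 2.11 without CD4 1. With a 2-fold limit the genes that rose went from 12 to 5 for the anaphase-promoting complex and its partners, and from 4 to 1 for the phosphatases. The genes that fell went from 1 to 0 and from 2 to 1 in the same lists, and from 2 to 1 for mitotic entry. The number of cohesin and condensin genes that fell was 4 with DESeq2 and without lymphoma 53. No paired analysis was made because the labels link no lymphoma sample to a CD4 sample. Depth limits the genes with few reads, the fewest in any library being 7 in CD4 and 110 in lymphoma for a kinetochore or checkpoint gene.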
